A study of Zea mays with 6 samples.

Results

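Transcripts of 63 of the 39656 annotated maize genes were specific to the abaxial (lower) side of the young leaf in these libraries. Members were chosen by their measured levels in RPM, read counts scaled to the uniquely aligned reads of a library. The lower of the 2 abaxial libraries had to reach 5 RPM and at least 2 times the highest of the other 4 libraries. A further 8 gene IDs were left out by name, and 3 of these met the rule (the KANADI gene mwp1, that is milkweed pod1, and the auxin response factor genes ARF11 and ARF12). The abaxial excess of the 63 genes is therefore what selected them and is given as a description without a test. The same rule turned to the other captures gave 95 genes for the adaxial (upper) side and 1227 for the center zone.

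The plants were B73 seedlings, the inbred line of the maize reference genome, of wild-type genotype and 14-d-old, with no treatment. Laser microdissection, in which a laser cuts chosen cells out of a tissue section, gave 3 groups of 2 replicates: the center zone of the shoot apex (CZ), and the adaxial (Ad) and abaxial (Ab) sides of the leaf primordia at stages P2 and P3. Each replicate pooled sections of at least 10 apices, so single plants were not measured, and the RNA was amplified before sequencing. These were captures of many cells, so fewer cells of a type and less RNA per cell cannot be told apart.

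A leaf primordium becomes flat because its adaxial and abaxial sides acquire different identities and the blade grows out where they meet. Transcription factors of opposing effect set these identities: HD-ZIP III proteins on the adaxial side, and KANADI proteins on the abaxial side, with auxin response factors. YABBY proteins act in lateral organs and not in the meristem, on the abaxial side in Arabidopsis, whereas several maize YABBY genes are known to be expressed adaxially.

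Library totals ran from 14718269 counts in Ab replicate 1 to 25898155 in Ad replicate 2, and a count of 3 stood for 0.112 to 0.196 RPM. The labels were checked against marker genes that are not among the 63 members. Of these markers, mwp1 was left out by name though it met the rule, and the others played no part in the rule. Summed over 11 center zone markers, most of them class I KNOX genes such as knotted1, the center zone libraries held 1531.9 and 1818.0 RPM, the adaxial libraries 78.3 and 79.0 RPM, and the abaxial libraries 65.1 and 68.6 RPM. AS2, the indeterminate gametophyte1 gene that is known for the adaxial side of the maize leaf, read 201.0 and 181.8 RPM in Ad against 9.7 and 10.9 RPM in Ab. The adaxial HD-ZIP III genes (5 genes, summed) separated the sides far less, at 1236.2 and 1262.9 RPM in Ad and 972.4 and 947.1 RPM in Ab. They read 1317.2 and 1540.5 RPM in CZ. Of the 4 tested, 0 differed between Ab and Ad at an adjusted p under 0.01 by edgeR, and 1, phb3, was the higher in Ab. On the abaxial side, mwp1, which was left out of the 63 genes, read 51.4 and 55.3 RPM against at most 4.4 RPM in the other libraries. The epidermal HD-ZIP IV genes (4 ocl genes, summed) were high on both sides of the leaf, at 1245.1 and 1346.6 RPM in Ad and 1377.2 and 1634.0 RPM in Ab, against 291.8 and 314.4 RPM in the center zone.

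Among the 63 genes, the level varied much more than the replicates did. Mean abaxial levels ran from 5.4 to 938 RPM with a median of 23.1 RPM, where the medians of the group means were 5.1 RPM in Ad and 2.35 RPM in CZ. A mean of at least 100 RPM was reached by 9 genes, 28 lay from 20 to under 100 RPM, and 26 lay under 20 RPM. The abaxial replicates were within a factor of 1.5 of each other for 51 genes and within a factor of 2 for 60, with a median ratio of the higher to the lower of 1.3. Summed over the 63 genes, the abaxial libraries held 4195.1 and 3398.0 RPM, the adaxial libraries 627.1 and 639.6 RPM, and the center zone libraries 374.7 and 180.4 RPM. A single gene without a symbol, GRMZM2G152591, made up 25.3% and 23.9% of the abaxial sums.

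The ratio that the rule used, the lower abaxial library over the highest other library, ran from 2.0 to 22.4 with a median of 2.8. It was at least 10 for 11 genes, at least 5 for 18 and at least 3 for 26, so that 37 genes were less than 3 times above the highest other library. That highest library was an adaxial one for 52 genes and a center zone one for 10, and kan1 had the same highest value in both groups. CZ replicate 2 held the highest value only in ties with CZ replicate 1 (kan1 and GRMZM2G031177). Only 3 genes were under 1 RPM in all 4 other libraries, namely kan3, kan1 and GRMZM2G152975.

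**Figure D1:**
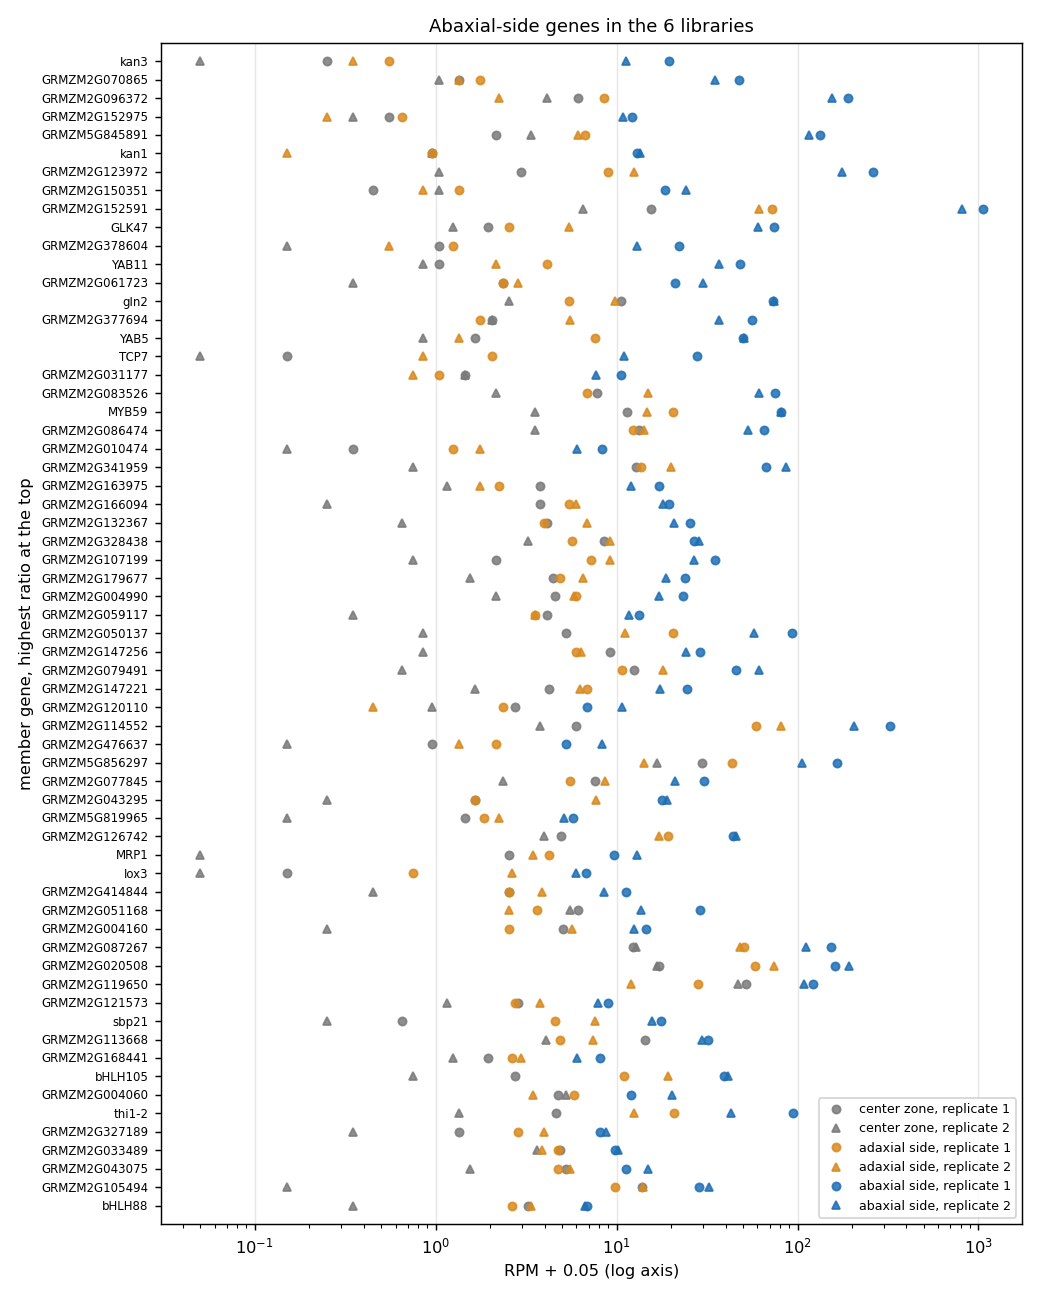
RPM (log axis, with an offset of 0.05 RPM) of each of the 63 genes in the 6 libraries, ordered by the ratio of the lower abaxial to the highest other library. Points are single libraries, coloured by group. The abaxial points lie to the right of the others by definition, and the gap narrows from a ratio of 22.4 at the top to 2.0 at the bottom.

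The highest ratio belonged to a regulator of leaf polarity. Both other KANADI genes with a symbol were members. The KANADI gene kan3 (GRMZM2G175827; B73 RefGen_V3 chromosome 4, 80073206 to 80086056, plus strand) had the highest ratio of all, with 19.4 and 11.2 RPM in Ab, 0.5 and 0.3 RPM in Ad, and 0.2 and 0.0 RPM in CZ. Its level outside the abaxial side was thus close to the limit of detection, with 0 counts in CZ replicate 2. Fitted log2 differences of kan3 were 5.23 (SE 0.89) from Ad and 6.97 (SE 1.00) from CZ. The second KANADI gene, kan1 (GRMZM2G056400; chromosome 1, 215606266 to 215611664, minus strand), gave 12.9 and 13.5 RPM in Ab, 0.9 and 0.1 RPM in Ad, and 0.9 RPM in both CZ libraries. The 3 KANADI genes with a symbol were each at their highest on the abaxial side, which the rule fixed for kan3 and kan1. The third, mwp1, also met the rule. Families here and below hold only genes with a symbol, which 2698 of the 39656 IDs had. Over all 17993 tested genes 63 were members, which is the background for the counts by family. Members without a symbol could not be placed in a family.

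GLK47 (GRMZM2G060834; chromosome 5, 199288141 to 199293157, minus strand) belongs to the G2-like family, whose DNA-binding domain KANADI proteins also carry. It measured 74.5 and 60.5 RPM in Ab, 2.5 and 5.4 RPM in Ad, and 1.9 and 1.2 RPM in CZ. Of the 7 tested genes of the G2-like list, which was added after the members had been seen, GLK47 was the only one to meet the rule.

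YABBY genes split into several patterns. YAB11 (GRMZM2G141955; chromosome 1, 175637947 to 175644181, plus strand) read 48.1 and 36.9 RPM in Ab, 4.1 and 2.1 RPM in Ad, and 1.0 and 0.8 RPM in CZ. YAB5 (GRMZM2G116646; chromosome 3, 89426889 to 89433180, plus strand) read 49.7 and 50.5 RPM in Ab, 7.5 and 1.3 RPM in Ad, and 1.6 and 0.8 RPM in CZ. The abaxial replicates of YAB5 were nearly equal, while its adaxial replicates differed more than 5-fold. The other 6 tested YABBY genes did not meet the rule. Of these, yab14 stood at 70.1 and 76.9 RPM in Ad against 111.8 and 104.1 RPM in Ab, and yab10 at 19.9 and 29.1 RPM against 40.2 and 41.0 RPM. The order was turned for yab9, at 59.6 and 82.0 RPM in Ad against 20.2 and 19.5 RPM in Ab. The most abundant YABBY gene, yabby15, was high on both sides at 374.3 and 373.2 RPM in Ad and 293.9 and 319.8 RPM in Ab. In YAB3 and YAB6 the adaxial replicates disagreed, at 10.5 and 2.9 RPM and at 22.6 and 0.2 RPM, and the abaxial levels were at most 5.1 RPM.

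TCP7 (GRMZM2G035944; chromosome 8, 122903771 to 122906285, plus strand) was the single member among 7 tested genes of the TCP family, transcription factors that govern cell proliferation and growth in leaves. Its levels were 27.9 and 10.9 RPM in Ab, 2.0 and 0.8 RPM in Ad, and 0.1 and 0.0 RPM in CZ. The ratio between its abaxial replicates, 2.56, was the largest among the 63 genes, and the fitted log2 difference from Ad was 3.78 (SE 0.63). Within the same family TCP30 was highest on the adaxial side, with 77.5 RPM in both Ad libraries against 12.3 and 10.7 RPM in Ab.

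**Figure D2:**
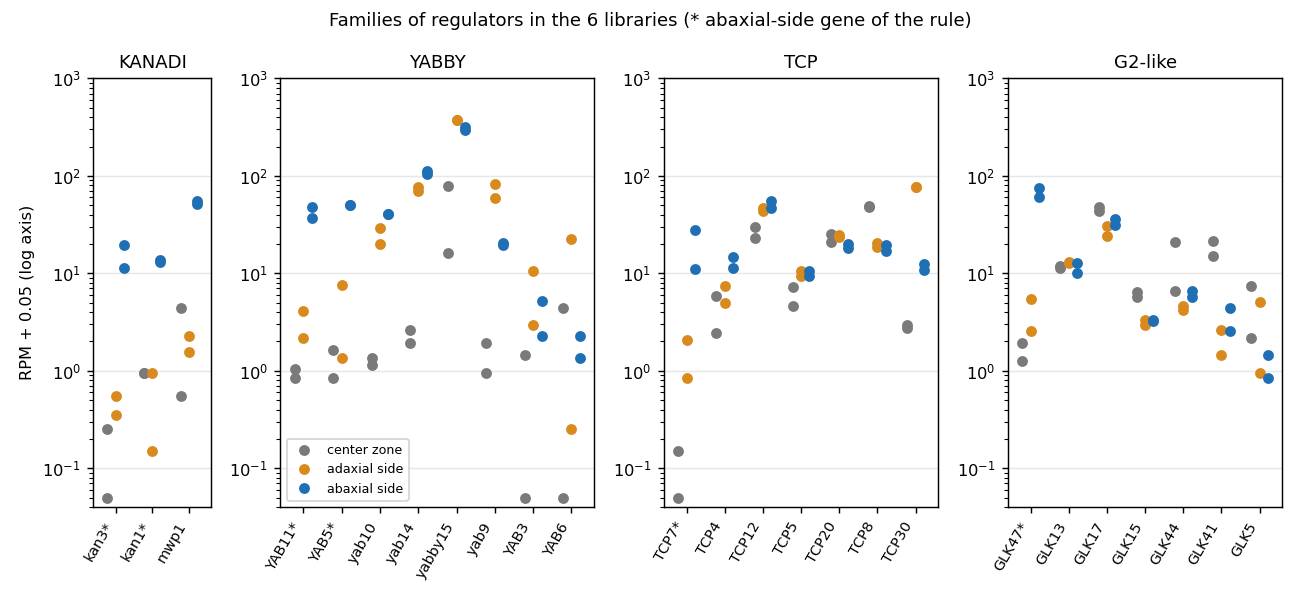
RPM (log axis, with an offset of 0.05 RPM) of all tested KANADI, YABBY, TCP and G2-like genes with a symbol in the 6 libraries. Points are single libraries (n = 2 per group) and an asterisk marks the genes of the rule. YAB11 and YAB5 are far higher on the abaxial side than elsewhere, while yab14 is above 70 RPM on both sides and yab9 and TCP30 are higher on the adaxial side.

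A further 4 transcription factor genes with a symbol were members. MYB59 (GRMZM2G130149; chromosome 1, 150708020 to 150712855, minus strand) was the most abundant of them, with 80.7 and 81.2 RPM in Ab, 20.5 and 14.7 RPM in Ad, and 11.3 and 3.5 RPM in CZ. It was the single member among 33 tested MYB genes. Basic helix-loop-helix genes gave 2 members among 27 tested. Of these, bHLH105 (GRMZM2G082586; chromosome 7, 128707588 to 128709815, plus strand) read 39.4 and 41.0 RPM in Ab, 11.0 and 19.1 RPM in Ad, and 2.7 and 0.7 RPM in CZ. The levels of bHLH88 (GRMZM2G350165; chromosome 2, 180661038 to 180664197, plus strand) were 6.8 and 6.6 RPM in Ab, 2.6 and 3.3 RPM in Ad, and 3.2 and 0.3 RPM in CZ, which placed it exactly at the ratio of 2. SQUAMOSA promoter-binding proteins are regulators of developmental phase and plant architecture. One of their genes, sbp21 (GRMZM2G148467; chromosome 10, 139078940 to 139081895, minus strand), read 17.5 and 15.7 RPM in Ab, 4.5 and 7.5 RPM in Ad, and 0.6 and 0.2 RPM in CZ. It alone of 19 tested genes of this list met the rule, but the list was added after the members had been seen. For bHLH105 and sbp21 both Ad libraries lay above both CZ libraries, as for 26.7% of all tested genes, whereas the Ad and CZ ranges of bHLH88 overlapped. The step from Ab down to the other groups was fixed by the rule.

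None of the 18 tested auxin response factor genes is a member, but 3 of them were among the IDs left out by name. Among genes with a symbol, no HD-ZIP III gene (4 tested) or class I KNOX gene (9 tested) met the rule, nor did any gene of the Aux/IAA list (17 tested). With 63 members among all 17993 tested genes, the lack of a member in lists this small is not a result about these families. That list was matched by symbol and also holds abp1, and it shares aic1 and AUX1 with the auxin transport list. The 17 are therefore not a count of the Aux/IAA family. Members without a symbol could belong to any of these families.

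Metabolic genes with a symbol were few. The gene gln2 (GRMZM2G024104; chromosome 1, 267894143 to 267897525, minus strand) encodes a glutamine synthetase, the enzyme that joins ammonium to glutamate. It measured 73.1 and 74.1 RPM in Ab, 5.4 and 9.8 RPM in Ad, and 10.5 and 2.5 RPM in CZ, and it was the single member among 6 tested genes of that enzyme. The list of that enzyme, like those of thi1-2 and lox3 below, was added after the members had been seen. The thiazole synthase gene thi1-2 (GRMZM2G074097; chromosome 3, 218835389 to 218837093, minus strand), which acts in the synthesis of thiamine, read 94.2 and 42.6 RPM in Ab, 20.8 and 12.4 RPM in Ad, and 4.6 and 1.3 RPM in CZ. Its abaxial replicates differed 2.21-fold, more than the 2-fold that the rule asks for between groups. The lipoxygenase gene lox3 (GRMZM2G109130; chromosome 1, 264200949 to 264205758, plus strand), of an enzyme family that oxygenates polyunsaturated fatty acids, was low throughout at 6.7 and 5.9 RPM in Ab, 0.7 and 2.6 RPM in Ad, and 0.1 and 0.0 RPM in CZ. The last gene with a symbol, MRP1 (GRMZM2G113203; chromosome 9, 57011529 to 57017762, plus strand), gave 9.6 and 12.9 RPM in Ab, 4.2 and 3.4 RPM in Ad, and 2.5 and 0.0 RPM in CZ. Its center zone replicates differed more than its Ad and Ab groups did, with 61 counts against 1.

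**Figure D3:**
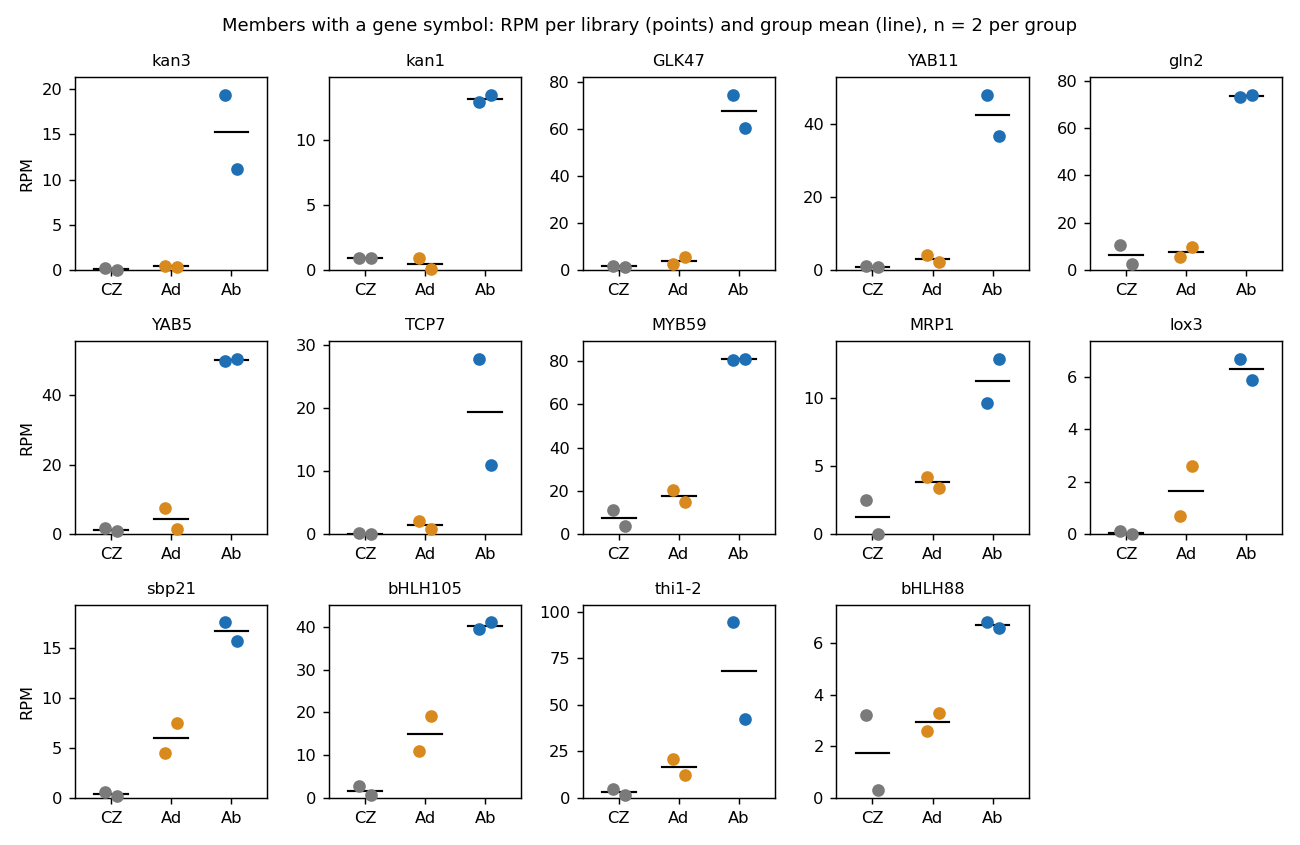
RPM of the 14 members with a gene symbol, on a linear axis from 0 for each gene. Points are the 2 libraries of each group (CZ, Ad, Ab) and the line is their mean. The abaxial replicates of gln2, MYB59 and YAB5 nearly coincide, while those of TCP7 and thi1-2 differ by factors of 2.56 and 2.21.

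The remaining 49 genes had no symbol in the table of gene names, and 12 of them had no entry in it. They included most of the highest ratios and levels. GRMZM2G070865 (chromosome 4, 158068289 to 158073370, plus strand) read 47.4 and 35.0 RPM in Ab against 1.7 and 1.3 RPM in Ad and 1.3 and 1.0 RPM in CZ. GRMZM2G096372 (chromosome 5, 21932820 to 21933890, minus strand) had the fifth highest mean, with 190.6 and 154.7 RPM in Ab, 8.5 and 2.2 RPM in Ad, and 6.1 and 4.1 RPM in CZ. GRMZM2G152975 (chromosome 1, 122471199 to 122475285, minus strand) was low, with 12.1 and 10.8 RPM in Ab, and 0.2 to 0.6 RPM in the other 4 libraries. In these 3 genes the Ad and CZ ranges met or overlapped, and only the abaxial libraries stood apart.

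GRMZM5G845891 (chromosome 4, 178137573 to 178139706, minus strand) measured 132.6 and 116.0 RPM in Ab, 6.6 and 6.1 RPM in Ad, and 2.1 and 3.3 RPM in CZ. GRMZM2G123972 (chromosome 2, 186532470 to 186534449, minus strand) reached 260.6 and 177.0 RPM in Ab, with 8.9 and 12.4 RPM in Ad and 2.9 and 1.0 RPM in CZ. Both had a ratio above 10, and in both the adaxial libraries lay above the center zone libraries. GRMZM2G152591 (chromosome 4, 190007812 to 190008902, plus strand) had the highest abaxial level of all 63 genes, 1063.1 and 812.0 RPM, with 71.8 and 60.9 RPM in Ad and 15.4 and 6.5 RPM in CZ. The second highest was GRMZM2G114552 (chromosome 3, 23896367 to 23898018, minus strand) with 325.8 and 204.2 RPM in Ab, 58.9 and 81.2 RPM in Ad, and 5.9 and 3.7 RPM in CZ. Even the highest member was thus present on the adaxial side, at a level above the abaxial level of most other members. RPM are not scaled to transcript length, so such comparisons between genes concern read share alone.

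GRMZM2G020508 (chromosome 4, 2621434 to 2625622, minus strand) gave 160.4 and 193.5 RPM in Ab, 58.3 and 73.7 RPM in Ad, and 17.1 and 16.7 RPM in CZ. It overlaps GRMZM2G317743 on the other strand over 510 bp, and that gene read 131.9 and 97.5 RPM in Ab, 46.2 and 50.0 RPM in Ad, and 6.7 and 4.9 RPM in CZ. The sources used here do not say that counting used strand, so reads from the shared stretch cannot be told apart. In all, 5 members overlap a gene on the opposite strand (the others being gln2, GRMZM2G163975, GRMZM5G856297 and GRMZM2G077845).

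At the limits of the rule, bHLH88, GRMZM2G105494 and GRMZM2G043075 lay just inside with ratios of 2.0, 2.029 and 2.036. The table of gene names lists GRMZM2G043075 as a transcribed pseudogene. Just outside were GRMZM2G162333, GRMZM2G044629 and GRMZM2G094639, at 1.992, 1.982 and 1.98. By level, GRMZM5G819965, GRMZM2G476637 and lox3 were just inside with a lower abaxial level of 5.1, 5.2 and 5.9 RPM, and GRMZM2G083788, AC205471.4_FG008 and GRMZM2G308860 just outside with 4.7, 4.6 and 4.5 RPM. No gap in either value separated the 63 genes from the next ones.

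The genes did not lie together on the chromosomes. Chromosome 1 held 15 of the 63 (23.8%, against 15.8% of all tested genes), and no chromosome was without a member. No members were adjacent and none lay within 100000 bp of each other, and the closest, GRMZM2G378604 and GRMZM5G856297 on chromosome 6, were 214555 bp apart with 15 genes between them. The median span of the gene models was 2956 bp, against 3965 bp for all tested genes.

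Differences from the other groups were fitted for all 17993 genes with a mean of at least 2 RPM in at least one group, with edgeR's quasi-likelihood test and a Benjamini-Hochberg adjusted p under 0.01. All 63 members were among these genes. Because the rule used both contrasts with Ab, the fitted values are a description. The median log2 difference of the members was 2.04 from Ad and 3.49 from CZ, where the medians over all tested genes were -0.01 and -0.03. Higher in Ab than in Ad at this threshold were 2 members, GRMZM2G070865 with a log2 difference of 4.73 (SE 0.30) and GRMZM5G845891 with 4.25 (SE 0.27), where 0.0222% of all tested genes were called in this direction. None was lower, where 0.05% of all tested genes were. Higher in Ab than in CZ were 26 members and lower 0, against 4.42% and 6.22% of all tested genes. For both contrasts with Ab, the counts of members under other settings have no share over all tested genes beside them here. The 2 calls against Ad became 30 with DESeq2, 19 with the 2 leaf groups fitted alone, 14 and 15 without CZ replicate 1 or 2, and 0 without any one of the 4 leaf libraries, while the 26 became 55 with DESeq2, 52 without CZ replicate 1 and 12 and 13 without Ab replicate 1 or 2.

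The contrast of Ad with CZ was not used by the rule, which bounds both groups from above and sets no order between them. Genes with a high level in either group could not be members, so the shares over all tested genes beside these counts are a background and not an independent comparison. The contrast asks whether the abaxial-side genes kept a higher level on the opposite side of the leaf than in the shoot apex. Only 51 of the 63 members reached a mean of 2 RPM in Ad or CZ. The others, TCP7 and lox3 among them, were tested through their abaxial level alone. Of the 63 members 10 were higher in Ad than in CZ (15.9%) and 0 were lower, where 5.61% of all tested genes were called higher and 6.38% lower. The fold change was above 0 for 56 members and below 0 for 7, while 48.6% of all tested genes were above 0. The median log2 difference was 1.31, against -0.03 over all tested genes. At an unadjusted p under 0.05, 23 members passed, a count that has no share over all tested genes beside it and is not read further. Counted by libraries alone, both Ad libraries lay above both CZ libraries for 29 members (46.0%; 26.7% of all tested genes) and below them for 3 (4.76%; 41.6%). Scaling by library size alone moved the median over all tested genes from -0.03 to -0.2, and left 55 members above 0, with 8 called higher and a median of 1.11. It also moved the calls over all genes from 1009 higher and 1148 lower to 793 higher and 1551 lower.

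The count of 10 depended on single libraries. It was 31 without CZ replicate 1, 10 without CZ replicate 2, 5 and 2 without Ad replicate 1 or 2 (1 of the 5 lower in Ad), and 4 and 6 without Ab replicate 1 or 2. DESeq2 gave 18, of which 1 was lower in Ad. Over all tested genes, however, DESeq2 called 2648 higher and 2477 lower, against 1009 and 1148 in the main fit. A fit of Ad and CZ alone gave 5, among the 51 members that reached 2 RPM in either group and so without TCP7. The median difference was 2.46 without CZ replicate 1 and 0.63 without CZ replicate 2, and from 0.92 to 1.34 without any other library.

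Among the 10 genes, TCP7 had the largest fitted log2 difference of Ad from CZ, 4.45 (SE 0.83, adjusted p = 0.00901 by edgeR's quasi-likelihood test). It rests on 70 counts in Ad against 3 in CZ, a ratio in RPM of 21.3 with a 95% counting interval (exact Clopper-Pearson) from 7.0 to 106.0. TCP7 averaged 1.4 RPM in Ad and 0.05 RPM in CZ, so it passed the filter through its abaxial level alone. The sbp21 gene followed with 4.06 (SE 0.59, adjusted p = 0.00401 by edgeR), and GRMZM2G114552 with 4.04 (SE 0.38, adjusted p = 0.0011). GRMZM2G152591, the most abundant member, differed by 2.77 (SE 0.40, adjusted p = 0.00473 by edgeR). The adaxial level of all 4 genes was thus several times that of the center zone while lying below their abaxial level.

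GRMZM2G107199 (chromosome 2, 39429270 to 39434596, minus strand), with 7.2 and 9.1 RPM in Ad and 2.1 and 0.7 RPM in CZ, differed by 2.68 (SE 0.47, adjusted p = 0.0076 by edgeR). The change with the smallest adjusted p was that of GRMZM2G126742 (chromosome 10, 134043229 to 134046251, minus strand), with 19.1 and 17.1 RPM in Ad, 4.9 and 3.9 RPM in CZ, and 44.1 and 45.4 RPM in Ab. Its log2 difference was 2.20 (SE 0.21, adjusted p = 0.000942 by edgeR). The 3 groups formed steps with narrow spread, of which the rule fixed the one from Ab to the other groups. GRMZM2G020508 and GRMZM2G087267 both differed by 2.13 (SE 0.22; adjusted p = 0.00127 and 0.00119 by edgeR). YAB11 differed by 1.93 (SE 0.36, adjusted p = 0.00885 by edgeR) and GRMZM5G845891 by 1.37 (SE 0.26, adjusted p = 0.0092). Without any one library, the calls of GRMZM2G126742 and GRMZM2G020508 held. Those of GRMZM2G114552 and GRMZM2G087267 were lost without Ad replicate 2 alone (adjusted p = 0.0115 and 0.0123 by edgeR). That of YAB11 was lost without each of the 6 libraries (adjusted p = 0.0132 to 0.0303), those of TCP7 and GRMZM5G845891 without each library but Ab replicate 2 and CZ replicate 2, respectively (up to 0.0435 and 0.047), those of sbp21 and GRMZM2G107199 without each of the 4 leaf libraries (up to 0.0251 and 0.0502), and that of GRMZM2G152591 without Ad replicate 1, Ad replicate 2 or Ab replicate 1 (up to 0.0357).

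Some large differences did not pass. The fitted value of lox3 was 4.75 (SE 1.16, adjusted p = 0.0216 by edgeR), from 85 counts in Ad against 3 in CZ, a ratio of 25.9 with a counting interval from 8.57 to 128.0. For bHLH105 it was 3.33 (SE 0.63, adjusted p = 0.014 by edgeR), and for thi1-2 it was 2.64 (SE 0.69, adjusted p = 0.04). In both genes the Ad libraries lay above the CZ libraries. The lowest value was that of GRMZM2G119650, which read 28.3 and 12.0 RPM in Ad against 51.7 and 46.8 RPM in CZ, at -1.15 (SE 0.34, adjusted p = 0.0415 by edgeR). The KANADI genes kan3 and kan1 gave 1.74 (SE 0.99, adjusted p = 0.215 by edgeR) and -0.62 (SE 0.76, adjusted p = 0.562) at levels under 1 RPM in both groups. Of the polarity regulators, only YAB11 passed, and YAB5 had nearly the same value with a larger error, 1.98 (SE 0.82, adjusted p = 0.126 by edgeR). The YABBY genes outside the rule gave larger differences: 4.53 (SE 0.32) for yab10, 5.19 (SE 0.26) for yab14 and 5.81 (SE 0.42) for yab9, so that 4 of 8 tested YABBY genes were higher in Ad than in CZ and none lower.

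**Figure D4:**
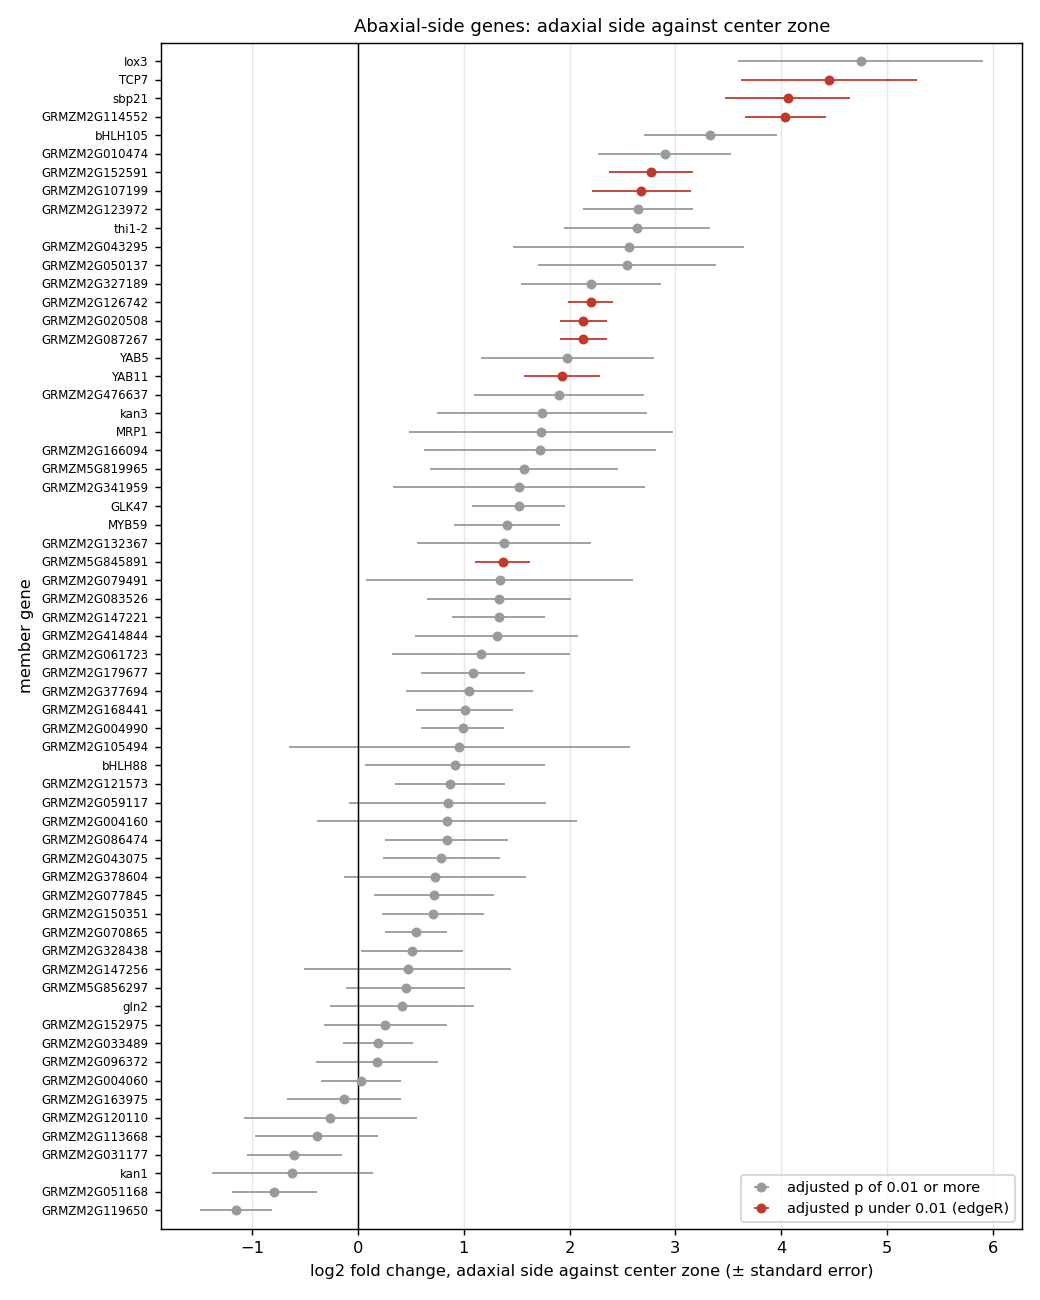
Fitted log2 difference of the adaxial side from the center zone for the 63 genes, with its standard error, from one edgeR fit of 6 libraries (n = 2 per group). Red marks an adjusted p under 0.01. The 10 red genes all lie above 0, 56 of the 63 genes lie above 0, and many of the wide bars belong to genes whose center zone replicates differ.

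The center zone replicates differed for these genes more than for most. CZ replicate 1 was above CZ replicate 2 for 56 of the 63 (88.9%), against 54.6% of all tested genes, and CZ replicate 2 was above for 4. For the size of the difference, counts under 3 in CZ replicate 2 were set to 3. CZ replicate 1 was then at least 2 times CZ replicate 2 for 40 members (63.5%), against 12.6% of all tested genes and 32.0% of the 5205 tested genes with a center zone mean of at most 10 RPM, a level that held for 58 members. A difference of at least 5 times was found for 17 members (27.0%), against 4.2% and 11.8%. GRMZM2G105494 is the clearest of them, with 13.8 and 0.1 RPM in CZ (333 and 3 counts), 9.7 and 14.0 RPM in Ad, and 28.4 and 32.4 RPM in Ab. Its fitted difference of Ab from CZ was 2.26 with an SE of 1.66. GRMZM2G341959, at 12.7 and 0.7 RPM, and GRMZM2G079491, at 12.4 and 0.6 RPM, were of the same kind. In Ad, replicate 1 was the higher for 29 members (46.0%, against 58.2% of all tested genes), at least 2 times replicate 2 for 9 (14.3%, against 4.31%) and at least 5 times for 3 (4.76%, against 1.09%). In Ab, replicate 1 was the higher for 42 members (66.7%, against 45.4%).

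For the 17 members, CZ replicate 1 stood at a median of 0.79 times the adaxial mean and CZ replicate 2 at 0.051 times. For the other 46 the medians were 0.67 and 0.299. All 10 members called between Ad and CZ and all 26 called between Ab and CZ were among the 46. The 17 were split off by the spread of the center zone replicates, which also enters the error of these tests. Their lack of calls is therefore not a separate result. Gene lists also differed between the center zone libraries. Summed RPM were higher in CZ replicate 1 for 31 of 36 lists, and at least 2 times higher for 8, among them YABBY (91.3 and 23.5 RPM), KANADI (5.5 and 1.4 RPM), lipoxygenase (260.2 and 37.4 RPM) and lignin genes (190.4 and 71.1 RPM). Several lists share genes, and the epidermal markers are the HD-ZIP IV list, so the 36 are not independent. By single genes, CZ replicate 1 was the higher for 54.6% of all tested genes. The 6 vasculature markers (5 Dof genes and BM1, a lignin gene) summed to 84.4 RPM in CZ replicate 1, 32.6 RPM in CZ replicate 2, 22.4 and 6.3 RPM in Ad, and 5.9 and 7.3 RPM in Ab. Nearly all of this was BM1, at 55.4 and 30.7 RPM in CZ, and DOF22, at 24.7 and 0.8 RPM, while DOF36 went the other way at 0.4 and 0.8 RPM in CZ and was at 0.0 RPM in the leaf libraries. The epidermal markers (314.4 and 291.8 RPM) and the center zone markers (1818.0 and 1531.9 RPM) differed less. The part of any cell type in the level of the members in CZ replicate 1 was not tested.

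**Figure D5:**
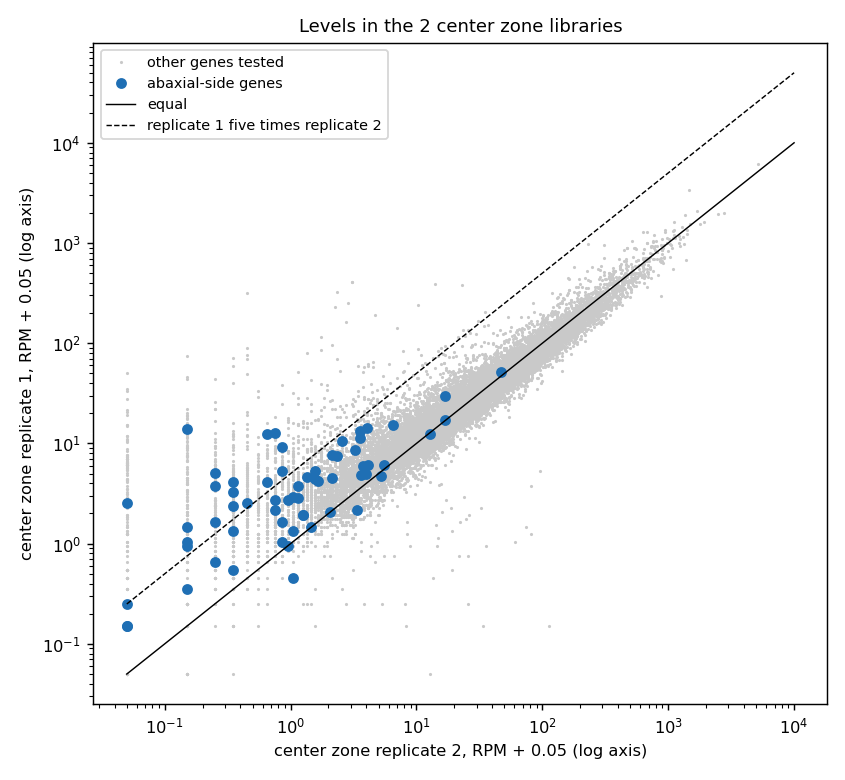
RPM in center zone replicate 1 against replicate 2 (log axes, with an offset of 0.05 RPM) for the 63 genes and for the other tested genes. The solid line marks equal levels and the dashed line a replicate 1 at 5 times replicate 2. Most of the 63 genes lie above the solid line (56 genes), and the 17 genes with at least a 5-fold difference have at most 0.8 RPM in replicate 2.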

How the data were processed

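Laser-captured cells of 3 regions were measured in 2 libraries each, with no pooling of libraries. According to the study's methods, the authors trimmed bases with a Phred value under 15, aligned 100-bp single-end reads with GSNAP (version not given in the sources used here) to B73 RefGen_V3, kept unique alignments with at most 2 mismatches per 36 bp, and deposited read counts per gene. The deposited RPM were scaled by the authors to each library's uniquely aligned reads and rounded to 1 decimal, without length scaling, because amplified RNA covers the 3′ 400 to 500 nucleotides. Counts of amplified reads are not independent molecules, so floors and intervals cover counting error only.

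Members were chosen on the deposited RPM. The members and gene lists were chosen with earlier results of these data known. Counts of genes that averaged 2 RPM or more in any group were fitted with edgeR 4.0.16 (TMM, robust quasi-likelihood F test) in R 4.3.3, with 3 groups in one fit, and p-values were adjusted by Benjamini-Hochberg over 17993 genes. The threshold of 0.01 is that of the study. Standard errors are the fold change over the square root of F. The biological coefficient of variation was 30.5%. On simulated data for Ad against CZ (17461 genes), the fit recovered 64.3% of 196 genes given a log2 change of 2, with 2 false calls. The simulation gave every gene the same spread and changed only 200 genes. It therefore does not give the recovery or false calls for members whose replicates differ widely. Alternatives were DESeq2 1.42.0, library size alone, other filters and thresholds, a replicate block, fits of the compared groups alone, limma-trend (limma 3.58.1) and leaving out each library. With 1 library left in a group, that library was assumed to vary like the others.

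Symbols came from the RefSeq gene table of Zm-B73-REFERENCE-NAM-5.0, in which 51 of the 63 IDs were found, and coordinates from the deposited table. Named are members with a symbol or in a gene list, the 5 with the largest ratio, the 5 with the highest abaxial mean, the 6 largest of the called changes between Ad and CZ, and genes at the limits of the rule. Chosen after their values were seen are GRMZM2G087267, GRMZM2G119650, GRMZM2G341959, GRMZM2G079491, GRMZM2G378604, the members with an overlapping gene, and genes outside the rule. Promoter sequences were not analysed here.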

Additional observations from a re-analysis of the deposited data

How the results depend on the processing

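The number of members was 128 at a ratio of 1.5, 26 at a ratio of 3, and 156 on group means. It was 85 and 50 at an abaxial minimum of 2 and 10 RPM, and 59 on TMM-scaled CPM (55 of the 63 among them). Without one library it ranged from 63 (without CZ replicate 2) to 110 (without Ad replicate 2). The lower limits, the group means and the loss of a library could only keep or add members, so that direction was fixed in advance. For Ad against CZ, the 10 calls became 18 with DESeq2, 18 at an adjusted p under 0.05, 5 with the compared groups alone, and 2 to 31 without one library. Library size alone, the filters and limma-trend gave 8 to 11, and 7 of the 9 from limma-trend were among the 10. For Ab against Ad, the 2 calls became 30 with DESeq2, 7 without a filter, 19 with the compared groups alone, 7 at an adjusted p under 0.05, and 0 to 15 without one library. For Ab against CZ, the 26 calls became 55 with DESeq2, 52 at an adjusted p under 0.05, and 12 to 52 without one library. The median of Ad against CZ ranged from 0.63 to 2.46 without one library, the latter without CZ replicate 1. In all, 10 called genes had 99 alternative values, of which 60 kept the call, 39 lost it and 0 changed sign. This tally leaves out the filters and limma-trend, and the cause of the changes was not tested. Outside the main fit, calls over all tested genes are given only for DESeq2 and library size alone, in Ad against CZ. The other counts of members have no such background here and are not a result about the members.

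Replicate numbers are shared by the groups, but nothing in the labels pairs them, and the deviations of same-numbered libraries correlated at 0.016 (CZ and Ad), -0.06 (CZ and Ab) and 0.187 (Ad and Ab). With a replicate block, the calls were 7 for Ad against CZ (6 of the 10) and 26 for Ab against CZ. For Ab against Ad they were 0 by edgeR, with 45 members at an unadjusted p under 0.05 and no share over all tested genes given here. The median of Ad against CZ was 1.43. The planned search for promoter motifs was not run. Depth limits the members near 0 in the center zone, where 3 counts stand for 0.124 and 0.131 RPM.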
